A study of Mus musculus with 4 samples.

Results

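RNA sequencing of cultured mouse macrophages was used to follow 10 genes that move, store or sense iron. They were chosen by name as Slc40a1, Slc11a1, Slc11a2, Fth1, Ftl1, Tfrc, Cp, Steap3, Ireb2 and Aco1, and all 10 had a row among the 34745 genes of the count table. The study asked which genes differ between macrophages of G3bp1f/f and G3bp1mac-/- mice. G3BP1 is an RNA-binding protein that scaffolds stress granules, the cytoplasmic bodies of protein and untranslated mRNA that form under stress. Total RNA was sequenced in 4 libraries, 2 per genotype, numbered 1 and 2 in their titles.

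The libraries labelled WT were, per the study's text, from mice whose G3bp1 gene was flanked by loxP sites, and those labelled G3bp1mac-/- (KO here) were from such mice crossed to Lyz2-Cre. Both genotypes thus carried the floxed allele. The Lyz2 promoter drives Cre in cells of the myeloid lineage, so deletion is not limited to macrophages and can be partial. The study's text gives the cells as bone marrow-derived macrophages (BMDMs). Per the labels, cells were kept in DMEM with serum, with no stimulus named for these samples. The ages and sex stated for mice of the study are not tied to the donors of these cells, and no source used here says whether each library came from a separate mouse or culture, so p-values here measure only the spread between libraries, which may be technical.

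Library totals lay between 16724241 and 19747909 gene counts, and 12418 genes had enough counts to be tested. A count of 0 allows up to 0.152 to 0.179 CPM (CPM, counts divided by the TMM-scaled total of their library, counting error only). G3bp1 itself had 1691 and 2875 (WT) and 1307 and 2296 (KO) counts, so the groups overlapped. Its log2 fold change, KO over WT, was -0.61 (SE 0.40, edgeR adjusted p = 0.904), and the ratios within numbers 1 and 2 were -0.57 and -0.63. Counts of a whole gene do not resolve deleted exons, so G3bp1 does not settle the labels. All 13 rows of the macrophage markers had counts in every library, with a summed level of 25627 to 27150 CPM in WT and 21747 to 25537 CPM in KO. Lyz2 and Cd68 made up most of that sum, 10 of the 13 rows had a negative log2 fold change, and single markers differed several-fold between the libraries of a genotype (Cd14, 125 and 683 CPM in WT). Within both genotypes the libraries numbered 1 and 2 stood apart for several of the iron genes, as given with each of them.

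Macrophages of spleen and liver clear aged red blood cells, free the iron of their heme, and either store it or return it to the plasma. Storage is in ferritin, a hollow protein shell built of heavy chains (Fth1), which oxidise iron, and light chains (Ftl1), which help to form its mineral core. Iron leaves the cell through ferroportin (Slc40a1), the sole known exporter of iron in mammals. The cell balances uptake and storage with iron regulatory proteins, which bind short RNA hairpins called iron-responsive elements (IREs) when iron is scarce. Binding near the 5′ end of an mRNA blocks its translation, whereas binding in the 3′ UTR of Tfrc mRNA protects it from decay.

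These hairpins are shown first, because 4 of the members share them. The transcript strand of every annotated UTR was searched for C, 5 bases, the loop CAGTGN and 5 bases that pair, by Watson-Crick or G-T pairs, with those before the loop, the last loop base not being G. The pattern was found in 4 of the 10 members (40%) and in 133 of 22527 coding genes (0.590%), of which 23 held it in the 5′ UTR and 110 in the 3′ UTR. The members were chosen as genes that move, store or sense iron, so the difference between these shares is not a test. Fth1, Ftl1 and Slc40a1 held it in the 5′ UTR, and Tfrc held 4 copies in its 3′ UTR. Each is printed 5′ to 3′ as DNA from GENCODE M21 transcripts on GRCm38, with the loop in capitals. The elements lie at chr19:9982732-9982761 (plus strand) for Fth1, chr7:45459778-45459807 (minus) for Ftl1, chr1:45925464-45925493 (minus) for Slc40a1, and chr16:32631219-32631248, chr16:32631598-32631627, chr16:32631663-32631692 and chr16:32631710-32631739 (all plus) for Tfrc.
Fth1: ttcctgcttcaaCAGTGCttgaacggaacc
Ftl1: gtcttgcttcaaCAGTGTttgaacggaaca
Slc40a1: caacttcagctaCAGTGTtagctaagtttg
Tfrc element 1: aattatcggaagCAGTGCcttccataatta
Tfrc element 2: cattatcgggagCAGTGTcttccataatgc
Tfrc element 3: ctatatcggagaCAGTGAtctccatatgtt
Tfrc element 4: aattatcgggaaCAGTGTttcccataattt

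The elements of both ferritin chains shared 26 of 30 bases. From Fth1 to Ftl1 the substitutions were T1G, C4T, C18T and C30A, with positions counted from 1 at the first base printed. Position 18 is the last base of the loop, and the 5 bases next to the loop on either side were the same in both. No match was found for Slc11a1, Slc11a2, Cp, Steap3, Ireb2 or Aco1, which says only that these letters were not in the annotated UTRs. A match is a description of the sequence, and the gene counts neither measure binding to an element nor separate transcripts with and without one.

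The level of the 10 genes spanned more than 4 orders of magnitude. Levels between genes are compared on FPKM, the deposited unit that divides fragments by library total and by gene length. The median FPKM over the 4 libraries was 14585 for Fth1, 6021 for Ftl1, 49.5 for Slc11a1, 25.0 for Tfrc, 21.8 for Slc11a2, 17.6 for Aco1, 10.1 for Ireb2, 4.89 for Steap3, 0.340 for Slc40a1 and 0.279 for Cp. Storage genes thus stood far above the importers and sensors, and the exporter stood near the bottom. Ranges over the 4 libraries overlapped between Tfrc, Slc11a2 and Aco1, between Slc11a2 and Ireb2, between Ireb2 and Steap3, and between Slc40a1 and Cp, so these were not separated by their spread.

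**Figure D1:**
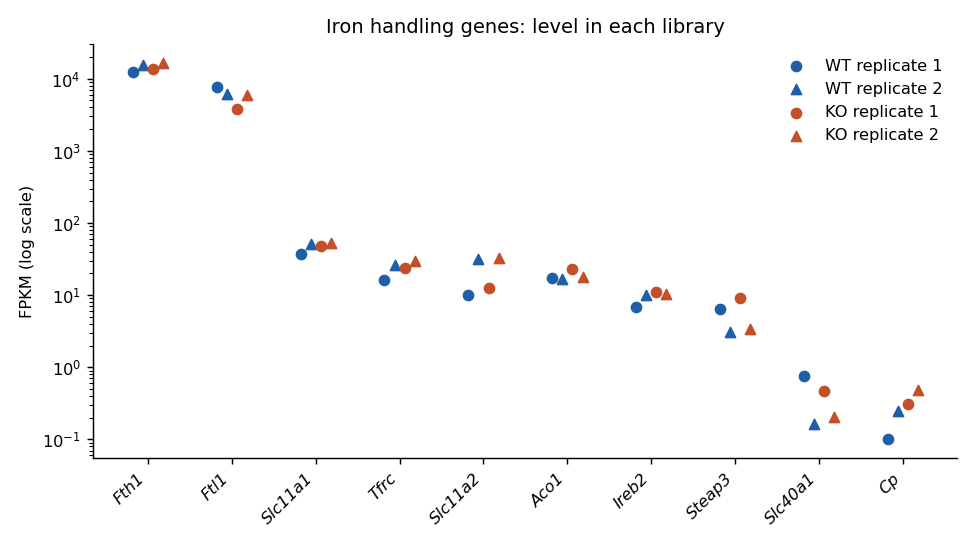
Deposited FPKM (log scale) of the 10 iron handling genes, with 1 point per library, circles for replicate 1 and triangles for replicate 2, WT in blue and KO in red. Fth1 and Ftl1 lay at or above 3798 FPKM in every library and Slc40a1 and Cp at or below 0.760, and circles and triangles did not overlap for Fth1, Slc11a1, Tfrc, Slc11a2, Steap3 and Slc40a1, with gaps over 2-fold in both genotypes for the last 3.

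The length behind these values matters for the order of the ferritin chains. Count and FPKM together implied a length of 2826 bases for Ftl1, whereas its first-numbered GENCODE transcript has 968, and 866 against 929 bases for Fth1. Rescaled to those transcripts, Ftl1 would have 22167 and 18043 FPKM in WT and 11089 and 17114 in KO, and Fth1 11621 and 14426 in WT and 12766 and 15507 in KO. On that scale Ftl1 lay above Fth1 in both WT libraries and in KO replicate 2 and below it in KO replicate 1, whereas on the deposited scale Fth1 lay above Ftl1 in all 4. The implied length also exceeded the transcript for the low-level genes, with 10761 against 3370 bases for Slc40a1 and 14615 against 4092 for Cp. Comparisons between genotypes use counts scaled by library, which do not depend on these lengths, except where a length correction or FPKM is named.

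Between the genotypes, none of the 10 genes passed the test. With calls made at an adjusted p below 0.05 and a change of more than 1 log2 unit, the quasi-likelihood test of edgeR had 0 of 10 members and 0 of 12418 tested genes (0%). At an unadjusted p under 0.05 it had 0 of the 10 members, against 576 genes higher (4.64%) and 247 lower (1.99%) in KO over the whole table. The edgeR exact test also called 0 members, against 174 genes (1.4%), as did the DESeq2 Wald test, against 181 genes (1.46%). With the replicate number as a term, 1 member was called (Cp) against 664 genes (5.35%), and with a gene length correction added, 0 members against 368 genes (2.96%). Each KO library exceeded each WT library for 1 of 10 members (Cp), against 20% of all genes, and below them for 1 (Ftl1), against 16.9%. Of the members 6 had a positive and 4 a negative log2 fold change, with a median of 0.06 beside 0.04 over all genes.

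**Figure D2:**
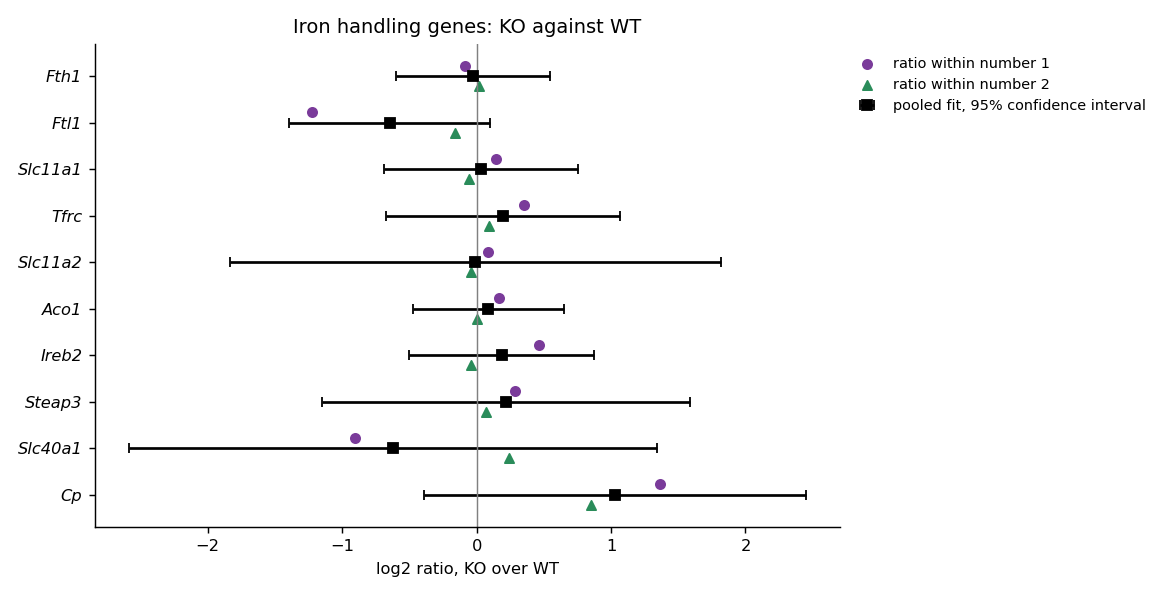
Log2 ratio of KO to WT for the 10 genes, with black squares for the pooled edgeR estimate and bars for its 95% confidence interval (CI), purple circles for the ratio within replicate number 1 and green triangles for that within number 2. All 10 intervals include 0. Ftl1 lies at -0.64 and Cp at 1.03. The ratios have 1 sign in both numbers for 5 of the 10 (Ftl1, Cp, Tfrc, Steap3 and Aco1), against 8070 of 12418 tested genes.

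Among the storage genes, the ferritin light chain gave the smallest p of the 10 in the quasi-likelihood and DESeq2 Wald tests, whereas Cp did in the exact test and in both fits with the replicate number. Ftl1 (ENSMUSG00000050708, chromosome 7, 45457944 to 45459884, minus strand, GRCm38) had 364878 and 295638 (WT) and 179519 and 327144 (KO) counts. Scaled by library these were 22495 and 18554 CPM in WT against 9634 and 16621 CPM in KO. Both KO libraries were below both WT libraries, and KO replicate 1 was the lowest by far. The WT mean was 20524 ± 2786 CPM and the KO mean 13127 ± 4940 CPM (SD, n = 2 each). This gave a log2 fold change of -0.64 (SE 0.29, 95% CI -1.39 to 0.10), with an edgeR adjusted p of 0.837 (0.0777 unadjusted). KO replicate 1 decided much of it, since the ratio was -1.22 within number 1 and -0.16 within number 2. Left out in turn, KO replicate 1 gave -0.30, KO replicate 2 -1.10, WT replicate 1 -0.50 and WT replicate 2 -0.81.

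Other genes with short transcripts were also lower in KO within number 1. The 500 tested genes nearest to Ftl1 in transcript length had a median log2 ratio of -0.64 within number 1 and -0.07 within number 2. By the longer length implied by the file, the 500 nearest genes had medians of -0.04 and -0.02. Removing a trend on the implied length left Ftl1 at -0.64, whereas removing one on transcript length, a correction chosen after the data were seen, left -0.38 with an edgeR adjusted p of 1.00. With the replicate number as a term it was -0.69 (edgeR adjusted p = 0.0517). Markers of red cell precursors, of which 5 of 12 were at 0 in all libraries, had a summed level of 12.0 and 8.22 CPM in WT against 2.04 and 3.10 CPM in KO. Summed markers of B cells (21.8 and 23.0 CPM in WT against 11.8 and 11.2 CPM in KO) had the same order of genotypes. So did those of mast cells and basophils (39.7 and 40.1 against 19.7 and 23.3). The sum of T and NK cells (2.40 and 1.69 against 1.39 and 1.12) and that of neutrophils (33.2 and 34.1 against 21.2 and 24.6) did too. Among the neutrophil markers, Mmp8 was higher in KO (11.6 and 12.1 CPM in WT against 13.1 and 13.2 CPM in KO). The sums overlapped between genotypes for dendritic cells (4.50 and 7.78 against 4.94 and 7.57) and endothelial cells (6.35 and 4.33 against 7.14 and 2.79). The part of any of these cells in the Ftl1 difference was not tested. The 3 genes whose scaled and centred levels were nearest to those of Ftl1 over the 4 libraries were Rpl24, Gm9803 and Sdhaf1, at Euclidean distances of 0.0445, 0.0902 and 0.109 log2 units.

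The heavy chain showed no such order of libraries. Fth1 (ENSMUSG00000024661, chromosome 19, 9982703 to 9985092, plus strand) had 183580 and 226858 (WT) and 198342 and 284486 (KO) counts. On the CPM scale it had 11318 and 14237 in WT and 10644 and 14453 in KO. The groups overlapped, and in each genotype the library numbered 2 was the higher. Its log2 fold change was -0.03 (SE 0.23, 95% CI -0.60 to 0.55, edgeR adjusted p = 0.993), and the within-number ratios were -0.09 and 0.02. The 500 genes nearest to Fth1 in transcript length had a median of -0.65 within number 1, so its own ratio there stood above the median for transcripts of its size. The sign of Fth1 turned under both length corrections, to 0.33 with the length implied by the file and to 0.23 with transcript length.

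Set against one another, the chains gave a Ftl1 to Fth1 count ratio of 1.99 and 1.303 (WT) and 0.905 and 1.15 (KO). Both KO ratios lay below both WT ratios, although WT replicate 2 and KO replicate 2 were close. Ferritin rows together took a large part of the sequenced fragments. Fth1 alone took 1.08% and 1.34% of a WT library and 1.19% and 1.44% of a KO library, and Ftl1 took 2.15% and 1.75% in WT and 1.07% and 1.66% in KO.

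Reads of the light chain can also fall on copies of it elsewhere in the genome. GENCODE annotates 21 copies of the ferritin chains at 85% identity or more over at least 300 bases, and 2 of them, Gm10116 and Ftl2-ps, had a row in the table. Gm10116 (ENSMUSG00000062382, chromosome 13, 74406396 to 74407317, plus strand), a light chain copy that GENCODE names Ftl1-ps1 but types as protein coding, singled out after its values were seen, matched Ftl1 at 99.56% over 910 bases. It had 66781 and 52948 (WT) and 47502 and 60827 (KO) counts, which was 15.5% and 15.2% of the Ftl1 and Gm10116 counts in WT and 20.9% and 15.7% in KO. In CPM both KO libraries (2549 and 3090) were again below both WT libraries (4117 and 3323), at a log2 ratio of -0.40 (SE 0.22, edgeR adjusted p = 0.861). Such near-identical sequences can split reads, so the division between Ftl1 and Gm10116 is uncertain. With copies summed into the ferritin rows, Ftl1 stood at -0.60. Ftl2-ps was small, with 28 to 37 counts.

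**Figure D3:**
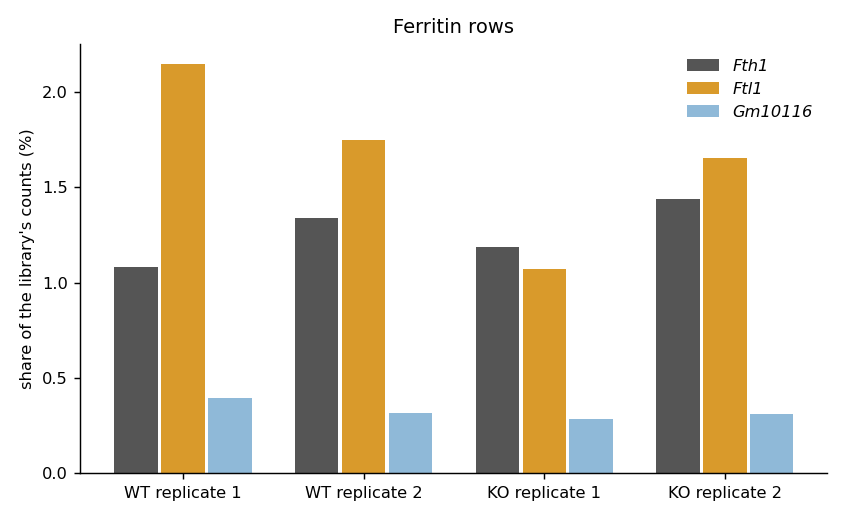
Share of each library's gene counts, in percent, taken by Fth1 (grey), Ftl1 (orange) and the light chain copy Gm10116 (blue), with 1 bar per library and no error bar. The 3 rows together took 3.62% and 3.40% in WT and 2.54% and 3.41% in KO, and Ftl1 lay under Fth1 in KO replicate 1 alone of the 4 libraries.

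Of the genes for iron leaving the cell, both were rare in these cultures. Slc40a1 (ENSMUSG00000025993, chromosome 1, 45908068 to 45926523, minus strand), which encodes ferroportin, had 139 and 30 (WT) and 85 and 44 (KO) counts. These were 8.57 and 1.88 CPM in WT against 4.56 and 2.24 CPM in KO. The groups overlapped fully, since the KO libraries lay between the WT libraries, and the number 1 library was the higher in each genotype. The log2 fold change was -0.62 with a wide interval (SE 0.77, 95% CI -2.59 to 1.34, edgeR adjusted p = 0.964). Within number 1 the ratio was -0.91 and within number 2 it was 0.24. WT replicate 1 decided the sign: without it the value was 0.85, and without the others -1.37 (WT replicate 2), -1.22 (KO replicate 1) and -0.20 (KO replicate 2).

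Cp (ENSMUSG00000003617, chromosome 3, 19957054 to 20009145, plus strand) encodes ceruloplasmin, a copper ferroxidase that oxidises iron as ferroportin releases it so that transferrin can bind it. It had 25 and 62 (WT) and 75 and 139 (KO) counts, or 1.54 and 3.89 CPM in WT against 4.02 and 7.06 CPM in KO. Each KO library exceeded each WT library, but KO replicate 1 was only just above WT replicate 2. The log2 fold change was 1.03 (SE 0.56, 95% CI -0.39 to 2.45), with an edgeR adjusted p of 0.862 (0.123 unadjusted). The ratios within numbers 1 and 2 were 1.37 and 0.85. With the replicate number as a term the value was 1.08 and passed (edgeR adjusted p = 0.0138), and with a gene length correction added to that fit it was 0.84 (edgeR adjusted p = 0.137). Each library moved the pooled value, which was 1.38 without KO replicate 1, 0.56 without KO replicate 2, 0.51 without WT replicate 1 and 1.81 without WT replicate 2.

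Markers of stromal cells were also higher in KO. All 10 of them had counts in every library, and their summed level was 80.5 and 93.8 CPM in WT against 357 and 333 CPM in KO, with 9 of 10 above WT in both KO libraries and none at 0. In bulk RNA, fewer cells of a type and less RNA per cell cannot be told apart, and the part of stromal cells in the Cp difference was not tested. Proliferation genes had a positive log2 fold change for 9 of 10 (median 0.87), with 7 of 10 above WT in both KO libraries, and their summed level, most of it Pcna, was 490 and 338 CPM in WT against 380 and 355 CPM in KO. Their part in the Cp difference was not tested either. Cp also overlaps Hps3 on the opposite strand, which had 441 to 616 counts. The sources do not say if counting was stranded, so Cp and Hps3 counts may not be fully separate.

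Iron taken up as transferrin enters through the transferrin receptor (Tfrc), is reduced in the endosome by Steap3 and leaves it through DMT1 (Slc11a2). Tfrc (ENSMUSG00000022797, chromosome 16, 32608920 to 32632794, plus strand) had 2632 and 4265 (WT) and 3859 and 5610 (KO) counts. On the CPM scale these were 162 and 268 in WT and 207 and 285 in KO. The groups overlapped, and the number 2 libraries were the highest of all 4. Its log2 fold change was 0.19 (SE 0.34, 95% CI -0.68 to 1.07, edgeR adjusted p = 0.973), and the within-number ratios were 0.35 and 0.09. Corrected for the length implied by the file it stood at 0.02, and corrected for transcript length, chosen after the data were seen, at -0.07.

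Slc11a2 (ENSMUSG00000023030, chromosome 15, 100387898 to 100425072, minus strand) had 1227 and 3835 (WT) and 1498 and 4605 (KO) counts. These came to 75.6 and 241 CPM in WT against 80.4 and 234 CPM in KO. The library numbered 2 was 3.18-fold higher in WT and 2.91-fold higher in KO than the library numbered 1, while the genotypes lay side by side. The log2 fold change was -0.01 (SE 0.72, 95% CI -1.83 to 1.82, edgeR adjusted p = 0.998), and the ratios within the numbers were 0.09 and -0.04. The pooled value rested on the balance of the numbers, since leaving out a single library gave -0.98 (KO replicate 2), -0.61 (WT replicate 1), 0.57 (KO replicate 1) or 1.02 (WT replicate 2). Some transcripts of Slc11a2 are known to carry an IRE-like hairpin and others not, and gene counts sum over both.

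Steap3 (ENSMUSG00000026389, chromosome 1, 120190757 to 120272705, minus strand) showed the opposite order of libraries. It had 1107 and 533 (WT) and 1552 and 691 (KO) counts, which were 68.2 and 33.5 CPM in WT against 83.3 and 35.1 CPM in KO. The library numbered 2 stood at 0.490 of number 1 in WT and at 0.422 in KO. Between the genotypes the log2 fold change was 0.22 (SE 0.54, 95% CI -1.15 to 1.58, edgeR adjusted p = 0.982), and the within-number ratios were 0.29 and 0.07. Its sign rested on single libraries, and leaving one out gave -0.53 (KO replicate 1), -0.24 (WT replicate 2), 0.82 (WT replicate 1) or 0.71 (KO replicate 2). It was -0.033 with the gene length correction.

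Slc11a1 (ENSMUSG00000026177, chromosome 1, 74375195 to 74386062, plus strand) encodes NRAMP1, a relative of DMT1 that carries iron and manganese out of the phagosome and is known for its role in resistance to intracellular microbes. It had 4790 and 6718 (WT) and 6076 and 7998 (KO) counts, or 295 and 422 CPM in WT against 326 and 406 CPM in KO. The KO libraries lay between those of WT. The log2 fold change was 0.03 (SE 0.28, 95% CI -0.69 to 0.75, edgeR adjusted p = 0.993), within-number ratios were 0.14 and -0.05, and the sign turned to -0.0054 with DESeq2 size factors.

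The sensors of cellular iron are the iron regulatory proteins that bind the hairpins printed above. Aco1 encodes IRP1, which is a cytosolic aconitase while it holds an iron-sulfur cluster and binds IREs once the cluster is lost. Ireb2 encodes IRP2, which is degraded when iron is plentiful. Neither gene separated the genotypes. Aco1 (ENSMUSG00000028405, chromosome 4, 40143081 to 40198338, plus strand) had 1467 and 1415 (WT) and 1891 and 1749 (KO) counts, and 90.4 and 88.8 CPM in WT against 101 and 88.9 CPM in KO. Its highest library was 1.14 times its lowest in CPM, the narrowest range of the 10 genes. Its log2 fold change was 0.09 (SE 0.22, 95% CI -0.48 to 0.65, edgeR adjusted p = 0.982), and the within-number ratios were 0.17 and 0.00.

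Ireb2 (ENSMUSG00000032293, chromosome 9, 54863755 to 54912534, plus strand) had 684 and 978 (WT) and 1085 and 1173 (KO) counts. Scaled, it had 42.2 and 61.4 CPM in WT against 58.2 and 59.6 CPM in KO. WT replicate 1 was low and the other 3 libraries were within a few CPM of each other. The log2 fold change was 0.19 (SE 0.27, 95% CI -0.50 to 0.88, edgeR adjusted p = 0.967), and the within-number ratios were 0.46 and -0.04. Corrected for the length implied by the file it stood at 0.08, and corrected for transcript length at -0.13.

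The small values of the other members were no firmer. Leaving out WT replicate 1 turned the sign of Slc11a1 (to -0.20), Tfrc (to -0.12) and Ireb2 (to -0.06), and leaving out KO replicate 2 turned Slc11a1 (to -0.14) and Tfrc (to -0.06). Fth1 turned to 0.18 when KO replicate 1 was dropped and to 0.11 when WT replicate 2 was, and Aco1 to -0.01 when KO replicate 1 was.

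By the median, these iron genes differed more between the replicate numbers than between the genotypes. Compared library by library, the median absolute log2 ratio of KO to WT over the 10 members was 0.32 within number 1 and 0.06 within number 2, against 0.63 between the WT libraries and 0.62 between the KO libraries. Over all tested genes the same medians were 0.39, 0.17, 0.40 and 0.31. The macrophage markers also differed between the numbers, with medians of 0.70 between the WT libraries and 0.88 between the KO libraries, and their part in the difference of the iron genes was not tested. Both number 2 libraries lay above both number 1 libraries for 5 of 10 members (25.2% of all genes) and below them for 3 (23.2% of all genes). Differences over 2-fold in the same direction in both genotypes were found for Slc11a2, which was higher in number 2, and for Slc40a1 and Steap3, which were lower. Over all genes 4.36% were higher and 2.42% lower by this measure. What the replicate numbers stand for is not given, so these are descriptions with no test.

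Other iron genes were split between the replicate numbers as well. Of the 72 tested genes of a wider list of 90 genes for iron and heme, the number 2 libraries lay above in 15 (20.8%) and below in 17 (23.6%), near the shares of all genes. Differences over 2-fold in both genotypes lay on one side, with 8 of the 72 higher in number 2 (11.1%, against 4.36% of all genes) and 0 lower (against 2.42%). Lcn2, which encodes the siderophore-binding lipocalin 2, had 9 and 247 (WT) and 14 and 276 (KO) counts. Slc39a14, a transporter of iron that is not bound to transferrin, had 95 and 493 (WT) and 185 and 690 (KO) counts. Alas1, the first enzyme of heme synthesis, had 1804 and 7949 (WT) and 2165 and 8207 (KO) counts, and the mitochondrial iron importer Slc25a37 had 219 and 1032 in WT and 437 and 1175 in KO. The other 4 were Hp, Spic, Nfe2l2 and Cdc14a.

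**Figure D4:**
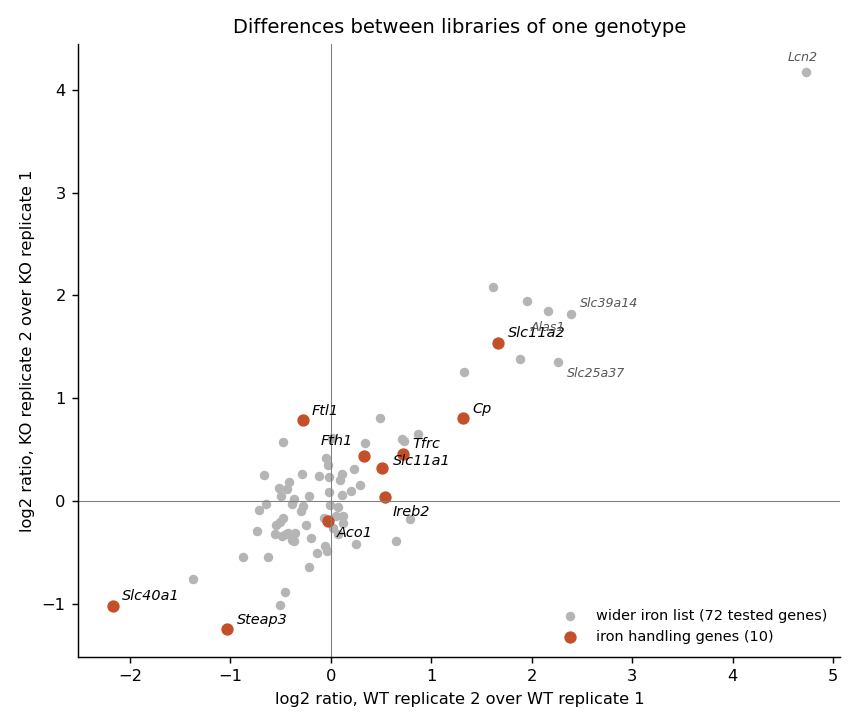
Log2 ratio of the library numbered 2 to that numbered 1 in KO (vertical axis) against the same ratio in WT (horizontal axis), for the 10 iron handling genes (red) and the 72 tested genes of the wider list (grey). Slc11a2 stands at 1.67 and 1.54 (WT and KO), Slc40a1 at -2.17 and -1.02, Steap3 at -1.03 and -1.25, and Ftl1 at -0.28 and 0.79.

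The wider list was also compared between the genotypes. The quasi-likelihood test called 0 of its 72 tested genes, the DESeq2 Wald test called 1 (Steap1, against 1.46% of all genes), and the edgeR exact test 0 (1.4%). The fit with the replicate number called 5 (Steap1, Steap2, Steap4, Neo1 and Cdc42bpa, against 5.35%), and all but Cdc42bpa were also called with the gene length correction added (2.96%). Of the 72 genes, 35 had a positive and 37 a negative log2 fold change, with a median of -0.01. At an unadjusted p under 0.05 there were 6 with a positive (4.64% of all genes) and 1 with a negative value (1.99%). Each KO library exceeded each WT library for 20 of the 72 (20% of all genes) and below for 10 (16.9%).

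By role, 3 of these 7 genes were among the 9 tested genes for transferrin uptake and iron import, and all 3 encode proteins of the STEAP family, to which Steap3 belongs. Steap4 had 68 and 122 (WT) and 272 and 450 (KO) counts, a log2 fold change of 1.66 (edgeR adjusted p = 0.378). Steap1 had 37 and 22 (WT) and 124 and 123 (KO) counts (1.81, edgeR adjusted p = 0.289), and Steap2 18 and 31 in WT and 95 and 89 in KO (1.65, edgeR adjusted p = 0.374). Steap3 itself stood at 0.22. Neo1, a cell surface receptor that takes part in hepcidin regulation in liver, was 1 of 3 tested genes for export and hepcidin, with 39 and 33 (WT) and 150 and 101 (KO) counts (1.55, edgeR adjusted p = 0.355). Cdc42bpa, a kinase whose mRNA has a described IRE, had 20 and 31 (WT) and 102 and 82 (KO) counts (1.60, edgeR adjusted p = 0.378), 1 of 6 tested genes of that kind. For these 5 genes both KO libraries exceeded both WT libraries, as they did for the summed level of the stromal markers, which was 80.5 and 93.8 CPM in WT against 357 and 333 CPM in KO, and the part of stromal cells and of proliferation in them was not tested.

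Genes of heme and of the mitochondrion gave 1 gene each. Among 15 tested genes for heme uptake, transport and breakdown, Abcb6, a porphyrin transporter, had 90 and 85 (WT) and 205 and 160 (KO) counts (log2 fold change 0.81, edgeR adjusted p = 0.688). Among 22 for mitochondrial iron and iron-sulfur clusters, Isca2, a cluster assembly factor, had 799 and 771 (WT) and 513 and 689 (KO) counts (-0.64, edgeR adjusted p = 0.698). No gene passed an unadjusted p under 0.05 among 9 for heme synthesis or 8 for ferritin turnover and iron chaperones.

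Several partners of the 10 members lay close to 0. Hmox1, heme oxygenase 1, which frees iron from heme, had 8794 and 10962 (WT) and 9380 and 14649 (KO) counts, a log2 fold change of 0.02. Ncoa4, the receptor that takes ferritin to the lysosome, had 498 and 412 (WT) and 565 and 506 (KO) counts (-0.01). Fbxl5, which marks IRP2 for degradation, had 1081 and 1732 (WT) and 1220 and 1955 (KO) counts (-0.09). None of these 3 separated the genotypes. The chaperones that hand iron to ferritin, Pcbp1 and Pcbp2, stood at -0.12 and 0.16, and Slc39a14 at 0.29. Trf, which encodes transferrin, had 2590 and 2667 (WT) and 2808 and 2379 (KO) counts (-0.27), with both KO libraries below both WT libraries in CPM. Hamp, which encodes hepcidin, had 0 and 6 (WT) and 0 and 1 (KO) counts and was too low to be tested, as were 17 others of the wider list.

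**Figure D5:**
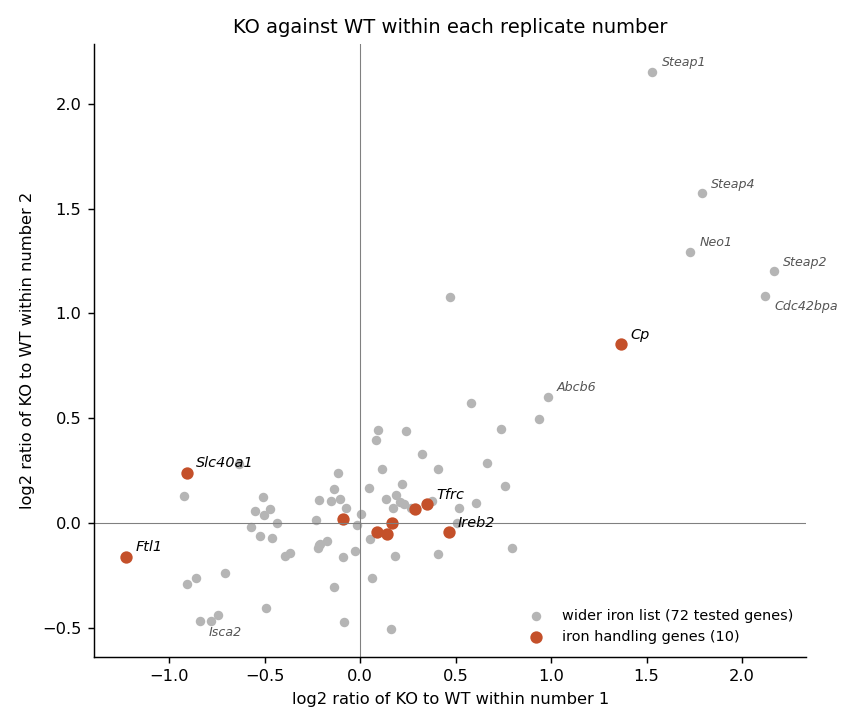
Log2 ratio of KO to WT within replicate number 2 (vertical axis) against that within number 1 (horizontal axis), for the 10 iron handling genes (red) and the 72 tested genes of the wider list (grey). Ftl1 lies at -1.22 and -0.16 (numbers 1 and 2) and Cp at 1.37 and 0.85, while Steap1, Steap2, Steap4, Neo1 and Cdc42bpa lie above 1 on both axes.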

How the data were processed

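RNA sequencing of 4 macrophage libraries (2 WT, 2 KO) was analysed from 1 gene table. The authors filtered reads with Seqtk, aligned them with HISAT2 2.0.4 and counted fragments per gene with StringTie 1.3.3b. The deposited counts were whole numbers and not normalised. The deposited FPKM values were these counts divided by gene length and library total. The submitters' notes name the build mm39, but of 34267 identifiers found in GENCODE M21 (GRCm38), 27686 had identical positions there, 8 of the 10 members among them, so positions are given on GRCm38 as in the file. A genome sequence and a protein table were not used here.

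Counts were scaled by TMM and filtered by filterByExpr (minimum count 10, minimum total 15), and tested with glmQLFit and glmQLFTest of edgeR 4.0.16 (R 4.3.3), two-sided, with Benjamini-Hochberg adjustment over all 12418 tested genes and genotype as the only term. Means ± SD are over 2 libraries. Ratios within a number had 0.5 counts added. The members and lists were chosen with earlier results of these data known. Named beside the 10 members and G3bp1 were, in each wider sublist, up to 3 genes per direction with the smallest unadjusted p under 0.05 and no overlap, 9 fixed partners (1 is not reported here), ferritin copies with at least 10 counts and the 3 genes nearest to Ftl1. Lcn2, Alas1, Slc25a37, Hp, Spic, Nfe2l2 and Cdc14a were named after their values were seen, for the difference between numbers. Alternatives were DESeq2 1.42.0 (Wald test, size factors), the edgeR exact test, limma 3.58.1 on log2(FPKM + 1), other filters, the replicate number as a term, length corrections (loess, span 0.5), summed ferritin copies and each library left out. Ferritin copies were found with blastn among GENCODE M21 transcripts. The code was tested on simulated data. No library was a copy of another: between pairs, chi-square over degrees of freedom was 22.7 to 125.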

Additional observations from a re-analysis of the deposited data

How the results depend on the processing

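The number of genes called, 0 in the quasi-likelihood test, was 181 with the DESeq2 Wald test, 174 with the edgeR exact test, 664 with the replicate block (the replicate number as a term), 368 with that block and a gene length correction, and 0 to 1 with each library left out. The replicate block called 1 of the 10 members and 5 of the 72 wider genes, the block with the length correction 4 of the wider genes, and the DESeq2 Wald test 1. Libraries that share a number deviated together (correlation 0.691), but with 2 pairs and no label on what the numbers mean, the pairing is not established. Under the block Cp passed at 1.08, and no other member was called. The members' median, 0.06, was 0.21 with limma on log2(FPKM + 1), -0.098 with the correction for transcript length, which was added after seeing the data, and -0.10 to 0.20 with each library left out.

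Signs near 0 were not stable. Slc11a1 was -0.0054 with DESeq2 size factors and with the Wald test, -0.12 with the gene length correction with or without the block, -0.027 with the transcript length correction and -0.20 to 0.28 with each library left out. Slc11a2 was 0.16 with limma, 0.023 with the replicate block and -0.98 to 1.02 with each library left out. Fth1 was 0.33 with the length correction, 0.35 with it and the block, 0.12 with limma, 0.23 with transcript length and -0.27 to 0.18 with each library left out. Steap3 was -0.033 with the length correction, -0.032 with it and the block, and -0.53 to 0.82 with each library left out. Aco1 was -0.013, -0.015 and, with transcript length, -0.14, and -0.0098 to 0.17 with each library left out. Transcript length also turned Tfrc (-0.070) and Ireb2 (-0.13), which were -0.12 to 0.57 and -0.059 to 0.45 with each library left out. Slc40a1 ranged from -1.37 to 0.85. Ftl1 (-1.10 to -0.30) and Cp (0.25 to 1.81) kept their sign in all 15 alternatives. The causes were not tested.

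With 2 libraries per genotype and a common biological coefficient of variation of 0.343 (0.169 with the block), intervals were wide, most of all for Slc40a1, Slc11a2, Steap3 and Cp. Leaving a library out leaves 1 in its genotype, which is then assumed to vary like the other. Counts were lowest for Slc40a1 and Cp, at 30 and 25 in their lowest libraries, where counting error adds to the spread between libraries.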
